A study of Mus musculus with 12 samples.

Results

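The proteasome subunits and assembly factors were taken as all genes whose annotated symbol starts with Psma, Psmb, Psmc, Psmd, Psme, Psmf or Psmg, 49 of the 19057 genes named on the array. They were measured in red cell precursors sorted from mouse bone marrow as Ter119-positive cells with high CD71, on strain background 129. Knock-in mice had T74A and T393A cyclin E, wild type littermates served as controls, and the age and sex of the mice are not given in the sources used here. These substitutions remove sites through which the ubiquitin ligase subunit Fbw7 recognises cyclin E. RNA was hybridised to 12 Illumina bead arrays, 6 per genotype; arrays with adjacent numbers were near-duplicates and were averaged, which left 3 wild type and 3 knock-in samples. The labels do not state that the samples are separate animals, and the spread that p-values measure may therefore be technical.

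The 26S proteasome degrades proteins that carry chains of ubiquitin, cyclin E among them. Its core particle is a barrel of alpha and beta rings whose beta subunits hold the cutting sites, and its cap binds the ubiquitin chain, removes it and feeds the unfolded protein into the barrel with a ring of ATPases. Maturing red cell precursors use this system while they dismantle most of their proteins and organelles. In blood cells the cutting subunits can be exchanged for immunoproteasome subunits, other activators can sit on the barrel in place of the cap, and dedicated chaperones assemble each piece.

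The 49 genes had 86 probes. Of them 47 are proteasome genes, and 2 carry the prefix only as binding partners: Psmc3ip, a protein of meiotic recombination, and Psme3ip1, a partner of the activator Psme3. On each array 67 to 69 of the 86 probes exceeded the background limit, and 41 of the 47 proteasome genes had a probe above it on at least 6 arrays. The other 6, the alpha ring genes Psma1, Psma3 and Psma6, the thymic subunit Psmb11, the lid gene Psmd3 and the core chaperone Psmg4, had no such probe and have no level here. Psmf1, an inhibitor of the core particle, was not analysed here. Duplicate arrays differed over the 41 genes by an SD of 0.0792 to 0.110 log2 units, and other arrays of the same genotype by 0.251 to 0.402. Array means ran from 134.5 to 247.2 intensity units.

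Markers of the sorted cell type were present: the erythroid genes Hba-a1, a globin, Slc4a1, the anion exchanger of the red cell membrane, and Alas2, the first enzyme of heme synthesis in red cells, had wild type means of 15.13, 14.87 and 15.16 on the log2 scale. Markers of other marrow cells were present as well. All 10 neutrophil markers passed the filter, with list means of 13.48 to 14.04 in the controls and 13.44 to 13.95 in the knock-in. The 14 measured B lineage markers of 20 listed had list means of 7.83 to 8.37 in the controls and 7.21 to 7.43 in the knock-in. All 14 were lower in the knock-in mean, where 58.4% of all genes were lower. The B lineage genes Pax5, Rag2, Dntt and Vpreb2 had no probe above the limit on at least 6 arrays. Of the erythroid list 7 of 12 genes were measured and 0 passed. List means were 12.18 to 12.71 in the controls and 12.51 to 12.67 in the knock-in. Alas2 differed by -0.23, with knock-in samples apart and lower, Hba-a1 by -0.16 and Slc4a1 by 0.03. Tfrc, Klf1, Epor and Gata1 differed by 0.40, 0.50, 0.47 and 0.24, with groups overlapping. Levels of Tfrc were 10.95 to 12.65 in the controls and 11.99 to 12.69 in the knock-in.

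The comparison asked whether transcripts of the proteasome differ in precursors whose cyclin E escapes Fbw7. Of 41 proteasome genes, 0 were called higher and 0 lower by limma over 9388 genes, where 0.0852% of all genes were called higher and 0% lower. Psmd10, a chaperone of cap assembly also known as gankyrin, came closest, with 2.01-fold higher signal in the knock-in samples and a limma adjusted p of 0.0526. At an unadjusted p under 0.05 limma gave 2 of the 41 as higher, Psmd8 and Psmd10, and 1 as lower, Psmb10, against 5.56% and 3.09% of all genes. Wild type and knock-in samples were fully apart for 1 gene that was higher, Psmd10, and for 3 that were lower, Psmb4, Psmb6 and Psmb10, against 7.23% and 6.47% of all genes. The median difference of the 41 genes was -0.04 log2 units, against -0.03 for all genes, and the median size of a difference was 0.10 against 0.11. With arrays scaled to their 75th percentile the median of the 41 was 0.16 and that of all genes 0.03, so the direction of the median depends on the scaling. For 38 of the 41 the 95% interval lay between -1 and 1 log2 units, and the exceptions were Psmd10, Psmd8 and Psmb8.

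**Figure D1:**
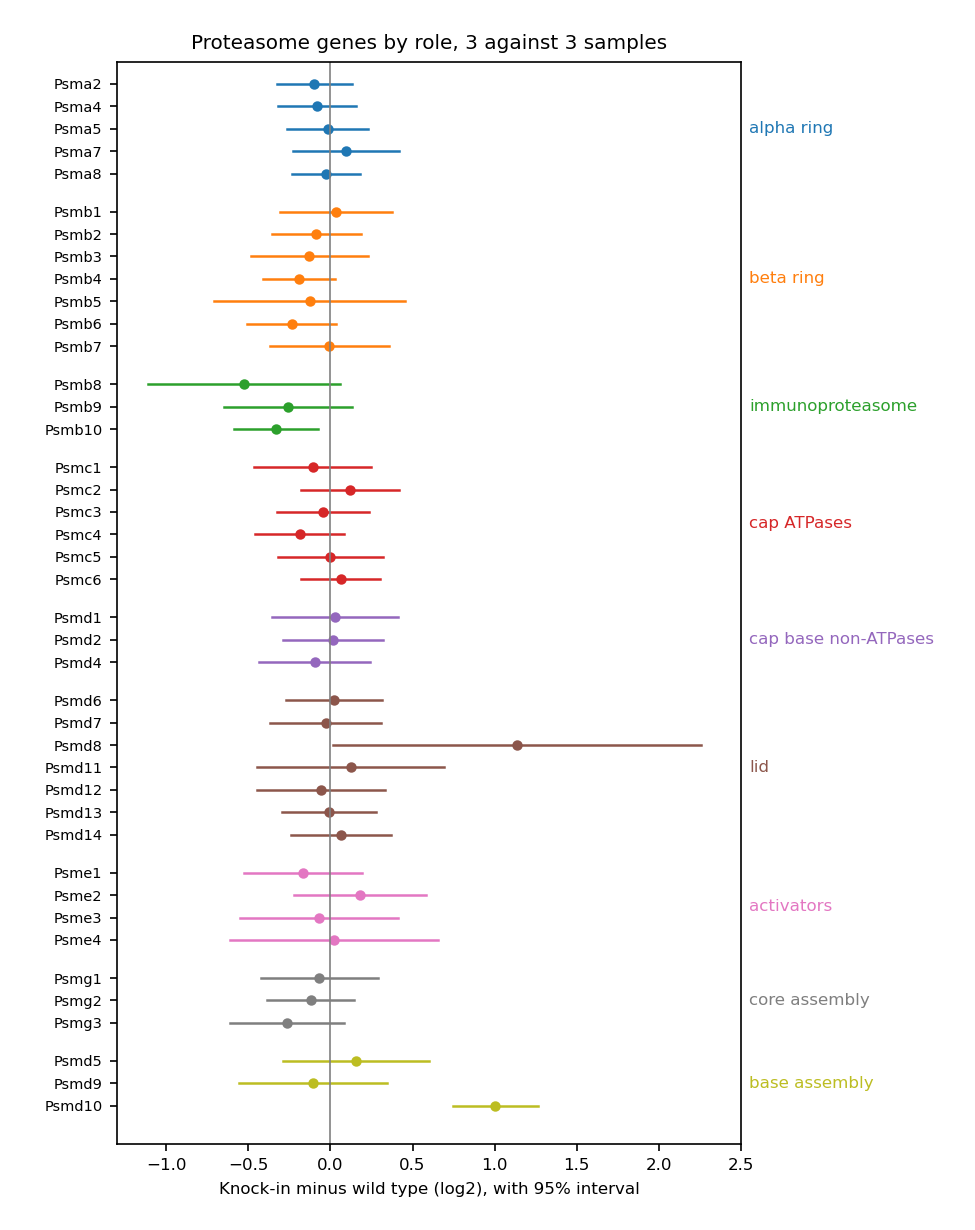
Knock-in minus wild type difference on the log2 scale (horizontal axis) of the 41 measured proteasome genes (vertical axis), grouped by role, with points for the estimates and bars for 95% intervals from limma, 3 against 3 samples. Psmd10 at 1.00 and Psmd8 at 1.14 stand to the right of the other 39 genes, which lie between -0.53 and 0.18, and the interval of Psmd8 is the widest.

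Chaperones that build the base of the cap are Psmd10, Psmd5 and Psmd9, each of which holds a pair of the ATPases until the base closes. Their promoters are shown because the 3 share this task, while the genotypes separated for Psmd10 alone of them. They run from 250 bases before to 50 bases after the annotated start in RefSeq's GRCm38.p6 tables, 5′ to 3′ on the gene's strand. Capitals mark matches on either strand to CCAAT, the box bound by NF-Y, to TGACNNNGC, the core of the antioxidant response element through which Nrf1 (Nfe2l1) drives proteasome genes, and to GAANNTTC, the unit of the heat shock element.
Psmd10, chrX:140956662-140956961, minus strand: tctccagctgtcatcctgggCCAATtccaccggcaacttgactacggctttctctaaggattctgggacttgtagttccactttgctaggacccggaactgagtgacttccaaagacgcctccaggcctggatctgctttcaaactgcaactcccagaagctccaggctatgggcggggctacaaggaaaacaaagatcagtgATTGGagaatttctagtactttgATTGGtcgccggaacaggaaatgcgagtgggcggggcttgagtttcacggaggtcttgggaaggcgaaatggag
Psmd5, chr2:34870913-34871212, minus strand: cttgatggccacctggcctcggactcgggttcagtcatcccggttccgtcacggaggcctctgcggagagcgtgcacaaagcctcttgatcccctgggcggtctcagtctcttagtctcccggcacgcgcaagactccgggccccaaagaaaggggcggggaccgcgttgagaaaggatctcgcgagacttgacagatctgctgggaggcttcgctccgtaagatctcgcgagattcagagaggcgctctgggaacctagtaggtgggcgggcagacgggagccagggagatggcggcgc
Psmd9, chr5:123227940-123228239, plus strand: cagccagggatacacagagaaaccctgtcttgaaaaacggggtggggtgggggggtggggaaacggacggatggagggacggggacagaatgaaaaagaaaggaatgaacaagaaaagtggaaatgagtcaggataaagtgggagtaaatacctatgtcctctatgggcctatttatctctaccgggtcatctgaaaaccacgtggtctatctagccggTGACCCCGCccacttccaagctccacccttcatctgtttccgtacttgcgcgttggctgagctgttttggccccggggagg
The printed Psmd10 window held 3 CCAAT matches and no match to the other motifs. Any further annotated window of these genes on another chromosome is not shown. The Psmd9 window held 1 TGACNNNGC match, and that of Psmd5 held none of the motifs. Promoters of 39 of the 47 proteasome genes were in the tables, 42 windows in all, and CCAAT stood in 14 of them, which is 33.3% against 37.4% of 32851 windows of all genes. A cut of at least 3 CCAAT matches equals the count of the printed Psmd10 window, which therefore meets it by construction. It was met in 4 of the 42, those of Psma3, Psmd4, Psmd10 and Psmd14, against 3.37% of all windows. This count is not read as a result. TGACNNNGC stood in 6 of the 42, 14.3% against 12.4%, and GAANNTTC in 2, 4.76% against 7.86%.

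Psmd10 had the largest difference of the base chaperones. Its log2 levels were 8.92, 8.69 and 8.92 in the wild type samples (arrays 1 and 2, 7 and 8, and 9 and 10) and 9.94, 9.76 and 9.84 in the knock-in samples (arrays 3 and 4, 5 and 6, and 11 and 12); levels of other genes below follow the same order. Each knock-in sample lay above each wild type sample, and the gap between the groups was wider than the spread within either. The means were 8.84 ± 0.13 in the controls and 9.85 ± 0.09 in the knock-in (log2, mean ± SD, n = 3 each), a difference of 1.00 ± 0.11 (SE) and 2.01-fold with a 95% interval of 1.68 to 2.40. By p it ranked 10 of 9388 genes, and it missed the threshold with a limma adjusted p of 0.0526. With blocks of 4 adjacent arrays as a term it passed with a limma adjusted p of 0.0267, as 1 of 41 proteasome genes, where 0.671% of all genes were called higher and 0.266% lower. Within arrays 1 to 4, 5 to 8 and 9 to 12, each of which held both genotypes, the difference was 1.02, 1.07 and 0.92.

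All 3 Psmd10 probes gave a higher signal in the knock-in. In deposited intensity units the brightest gave 253.9 to 427.9 on the 6 wild type arrays and 732.2 to 1137.3 on the 6 knock-in arrays. The next gave 213.5 to 362.3 and 629.8 to 909.9, and the dimmest gave 78.0 to 125.3 and 202.0 to 280.3. With none of the 3 probes did an array of one genotype reach into the range of the other. After normalization their log2 differences were 1.00, 0.95 and 0.74, and tested by themselves over all kept probes they had limma adjusted p of 0.0526, 0.104 and 0.345. The gene is X-linked, and Atg4a, an autophagy protease whose gene overlaps it in the annotation, was above the background limit on 0 of 12 arrays. The Y-linked gene Eif2s3y did not separate the genotypes, with levels of 7.80 to 8.77 in the controls and 8.26 to 8.70 in the knock-in. The dimmer Y-linked genes Kdm5d and Uty differed by -0.10 and -0.01, with groups overlapping. Probes of the X-linked RNA Xist were above the background limit on at most 2 of 12 arrays.

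**Figure D2:**
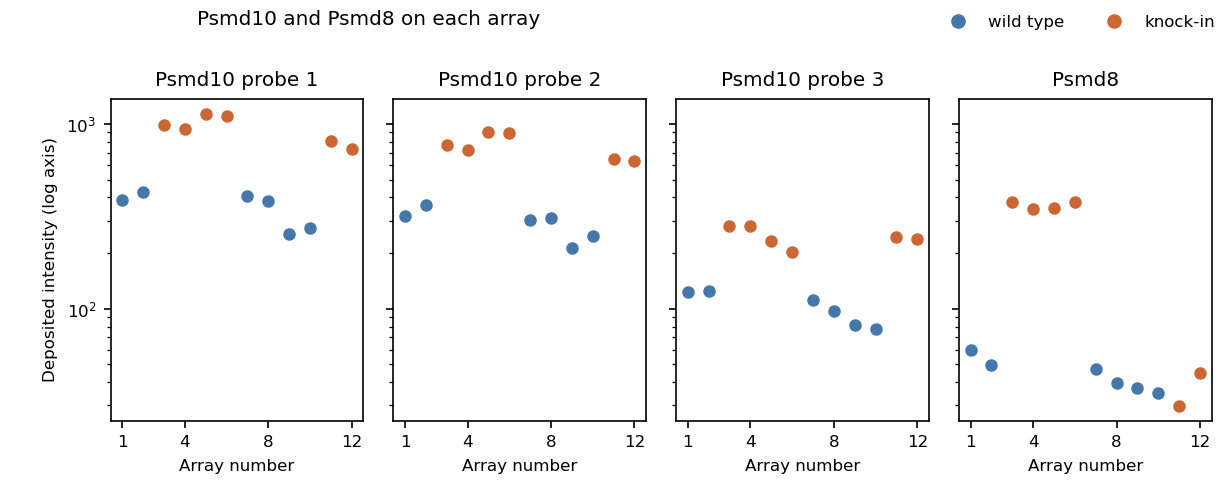
Deposited intensity (vertical log axis) on each of the 12 arrays (horizontal axis, array number) for the 3 Psmd10 probes and the Psmd8 probe, with wild type arrays in blue and knock-in arrays in orange. For Psmd10 all 6 knock-in arrays lie above all 6 wild type arrays on each probe, while for Psmd8 only knock-in arrays 3 to 6 lie high.

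For the other base chaperones the genotypes did not separate. Psmd5 gave 7.13, 6.69 and 7.10 in the controls and 7.27, 6.81 and 7.30 in the knock-in, and the groups overlapped, with a difference of 0.16 ± 0.18 (limma adjusted p = 0.951). Psmd9 gave 7.22, 6.87 and 7.25 against 6.82, 6.84 and 7.36, also overlapping, with a difference of -0.10 ± 0.19 (limma adjusted p = 0.977). The 95% intervals, -0.29 to 0.60 and -0.55 to 0.35, lie below the difference of 1.00 measured for Psmd10; the difference between these genes was not tested.

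The core particle is assembled by the chaperone pairs Psmg1 with Psmg2 and Psmg3 with Psmg4, of which Psmg4 was not measured. Psmg1 gave 7.19, 7.45 and 7.71 in the controls and 7.43, 7.27 and 7.44 in the knock-in. Psmg2 gave 8.62, 8.44 and 8.52 against 8.30, 8.35 and 8.57. Psmg3 gave 8.19, 8.06 and 8.45 against 7.81, 7.93 and 8.16. Wild type and knock-in samples overlapped for all 3. Their differences were -0.07 ± 0.15, -0.12 ± 0.11 and -0.26 ± 0.14, with limma adjusted p of 0.98, 0.926 and 0.737. Pomp, the maturation factor of the beta ring, lies outside the prefix and differed by -0.28 ± 0.10, with levels of 10.54, 10.51 and 10.64 in the controls and 10.41, 10.21 and 10.24 in the knock-in (limma adjusted p = 0.474). All 3 knock-in samples lay below the wild type samples for Pomp, and the difference did not pass the test.

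The core particle had 12 measured genes, of which 0 passed and 10, or 83.3%, had a knock-in mean below the wild type mean. Over all genes 58.4% did. The median difference was -0.09 log2 units, and it was 0.15 with arrays scaled to their 75th percentile, so it has no direction that holds under each scaling. In the alpha ring, the outer gate of the barrel, 5 genes were measured, with differences of -0.10 to 0.09. Psma2 gave 11.91, 11.96 and 11.79 in the controls and 11.73, 11.87 and 11.76 in the knock-in, and Psma4 gave 9.94, 9.96 and 9.86 against 9.90, 9.70 and 9.91. The groups overlapped in both, and the limma adjusted p was 0.932 and 0.951. Psma5 and Psma7 differed by -0.02 and 0.09, and Psma8, the alpha subunit of the testis, by -0.03. Psma8 was dim, with means of 6.41 in the controls and 6.38 in the knock-in, so its difference may be understated.

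The 7 genes of the constitutive beta ring were all measured, with differences of -0.24 to 0.04. Psmb6, which cuts after acidic residues, gave 10.87, 10.69 and 10.97 in the controls and 10.68, 10.48 and 10.65 in the knock-in, a difference of -0.24 ± 0.11 (limma adjusted p = 0.653). Psmb4, a structural subunit, gave 11.71, 11.65 and 11.57 against 11.38, 11.46 and 11.51, a difference of -0.19 ± 0.09 (limma adjusted p = 0.65). In both genes the lowest wild type sample stood above the highest knock-in sample by a margin smaller than the spread within the groups. With arrays scaled to their 75th percentile these differences were 0.03 and 0.09. The second Psmb6 probe differed by -0.25.

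Psmb5, with the chymotrypsin-like site that proteasome inhibitors block first, gave 8.04, 7.74 and 8.55 in the controls and 8.09, 7.65 and 8.21 in the knock-in. Psmb7, with the trypsin-like site, gave 10.88, 10.62 and 10.80 against 10.70, 10.55 and 11.03. Their groups overlapped, and the differences were -0.13 ± 0.24 and -0.01 ± 0.15 (limma adjusted p = 0.98 and 0.999). Psmb5 varied more between blocks of arrays than between genotypes: both samples of arrays 5 to 8 were its lowest and both of arrays 9 to 12 its highest.

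Immunoproteasome subunits replace the 3 cutting subunits in leukocytes and under interferon: Psmb8 takes the place of Psmb5, Psmb9 that of Psmb6 and Psmb10 that of Psmb7. All 3 had a lower mean in the knock-in samples, where 58.4% of all genes did, and 0 passed the test. Psmb10 gave 9.05, 9.24 and 9.36 in the controls and 8.87, 8.90 and 8.89 in the knock-in, which did not overlap. Its difference was -0.33 ± 0.11 (limma adjusted p = 0.389), and within the blocks it was -0.19, -0.33 and -0.47. The groups overlapped on its second probe, which differed by -0.30 (limma adjusted p = 0.779) and was 8.92 in the wild type and 9.12 in the knock-in sample of arrays 1 to 4, so the separation rests on a single probe. Psmb8 gave 9.96, 10.51 and 10.14 against 10.15, 9.50 and 9.37. The knock-in sample of arrays 3 and 4 lay within the wild type range and the other knock-in samples below it, so that the difference of -0.53 ± 0.24 (limma adjusted p = 0.645) was 0.20, -1.01 and -0.77 within the blocks. A dimmer Psmb8 probe differed by -0.23. Psmb9 gave 8.87, 9.19 and 8.95 against 9.00, 8.75 and 8.47, with a difference of -0.26 ± 0.16 (limma adjusted p = 0.785) and block values of 0.13, -0.44 and -0.48.

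The median of the 3 immunoproteasome genes was -0.33, and it was -0.11 with 75th percentile scaling and -0.16 with array weights. With these settings Psmb8 differed by -0.28 and -0.16, Psmb9 by -0.054 and -0.067, and Psmb10 by -0.11 and -0.29. Without the knock-in sample of arrays 11 and 12 the difference of Psmb9 was -0.13, and without the wild type sample of arrays 7 and 8 it was -0.17. Signal of B lineage markers, whose cells carry the immunoproteasome, was lower as well, with list means of 8.23, 8.37 and 7.83 in the controls and 7.36, 7.43 and 7.21 in the knock-in. All 7 macrophage and all 7 mast cell, basophil and eosinophil markers measured also had lower knock-in means, where 58.4% of all genes did. Their list differences were -0.36 and -0.47. The 5 measured T and NK markers were lower too, with a list difference of -0.17. The neutrophil list differed by 0.02, with 5 markers lower and 5 higher. Of the megakaryocyte markers 2 were lower and 3 higher. The part of these cells in the result was not tested. In sorted bulk RNA, fewer cells of a type and less RNA per cell cannot be told apart. Of 14 listed interferon and antigen presentation genes 12 were measured, 0 passed, and their median difference was -0.11. The knock-in mean was lower for 8 and higher for 4, where 58.4% of all genes were lower. Tap2, a peptide transporter subunit, differed by -0.30 ± 0.16 and Tap1, its partner, by -0.14 ± 0.14. Irf8, a transcription factor of B and myeloid cells, differed by -0.34 ± 0.15 and the interferon-induced Isg15 by 0.41 ± 0.62. The limma adjusted p of these 4 genes ran from 0.601 to 0.967. The only gene of the list with groups apart was H2-K1, lower by -0.24 ± 0.11 (limma adjusted p = 0.643). Besides Isg15, the genes with a higher mean were Irf7 at 0.37 ± 0.20, Tapbp at 0.12 and B2m at 0.08. A second Tapbp probe differed by -0.26.

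**Figure D3:**
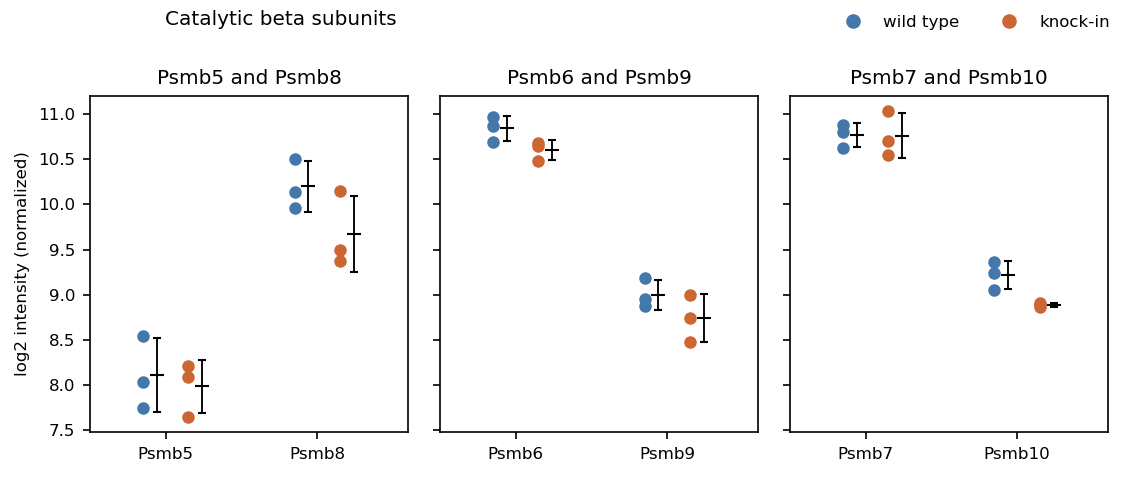
Normalized log2 intensity (vertical axis) of each cutting subunit of the beta ring and the immunoproteasome subunit that replaces it (horizontal axis), with points for the 3 wild type samples in blue and the 3 knock-in samples in orange, and black bars for mean ± SD. Points of Psmb6 and Psmb10 separate by genotype, and those of the other 4 genes overlap; levels of different probes are not comparable.

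In the cap 16 genes were measured and 0 passed. The knock-in mean was higher for 8 and lower for 8, where 58.4% of all genes were lower. The median difference was 0.01. It was 0.19 with 75th percentile scaling, -0.073 without the wild type sample of arrays 7 and 8 and 0.070 without that of arrays 1 and 2, so it has no direction that holds. The 6 ATPases that form the unfolding ring differed by -0.19 to 0.12. Psmc6, which differed by 0.06, was close to the background limit with a probe above it on 7 of 12 arrays. Folds of such dim genes are understated. Psmc4 gave 10.36, 10.26 and 10.18 in the controls and 9.95, 10.05 and 10.25 in the knock-in, and Psmc2 gave 11.17, 10.80 and 10.85 against 11.01, 11.04 and 11.13. In neither did the samples separate by genotype (limma adjusted p = 0.775 and 0.938). Psmc5 had the same mean in both, 9.78 ± 0.17 in the controls and 9.78 ± 0.16 in the knock-in.

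The base also holds the scaffold subunits Psmd1 and Psmd2 and the ubiquitin receptor Psmd4. Psmd1 gave 11.44, 11.27 and 10.85 in the controls and 11.18, 11.21 and 11.25 in the knock-in, and Psmd4 gave 11.37, 11.52 and 11.63 against 11.16, 11.58 and 11.49. Both overlapped between genotypes. Psmd2, close to the background limit with a probe above it on 8 of 12 arrays, differed by 0.02. Psmd14, the enzyme of the lid that cuts the ubiquitin chain from the substrate, gave 8.81, 8.48 and 8.81 against 8.81, 8.64 and 8.84, a difference of 0.06 ± 0.13 (limma adjusted p = 0.98). Psmd11, a lid subunit, gave 8.26, 7.67 and 8.03 against 8.33, 7.65 and 8.35, a difference of 0.12 ± 0.24 (limma adjusted p = 0.98). The samples of both genes overlapped, and Psmd6, Psmd7, Psmd12 and Psmd13 differed by -0.06 to 0.02. A further probe of Psmd7 and of Psmd12 differed by 0.22 each, with overlapping groups.

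Psmd8, a subunit of the lid, had the widest spread over samples of all 41 genes. It gave 6.86, 6.59 and 6.94 in the controls and 8.68, 8.32 and 6.80 in the knock-in. The knock-in samples of arrays 3 and 4 and of arrays 5 and 6 were high, while that of arrays 11 and 12 lay within the wild type range. In deposited intensity units arrays 3 to 6 gave 346.0 to 379.9, and the other 8 arrays gave 29.7 to 59.7. The mean difference was 1.14 ± 0.47 (limma adjusted p = 0.573), and within the blocks it was 1.82, 1.73 and -0.14. Without the knock-in sample of arrays 11 and 12 the difference was 1.70 (limma adjusted p = 0.138). The second Psmd8 probe was above the background limit on 0 of 12 arrays, so the pattern rests on a single probe.

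Of the activators, Psme1 and Psme2 form the PA28 ring that interferon induces, Psme3 forms its nuclear counterpart and Psme4 is the large monomer PA200. Psme1 gave 10.34, 10.81 and 10.77 in the controls and 10.43, 10.58 and 10.41 in the knock-in, and Psme2 gave 7.72, 7.80 and 7.96 against 8.24, 7.67 and 8.11. Their differences of -0.17 ± 0.15 and 0.18 ± 0.17 had opposite signs, and the samples overlapped in both (limma adjusted p = 0.912 and 0.927). A second, dimmer Psme1 probe gave 8.84, 8.98 and 9.31 in the controls and 8.78, 8.57 and 8.70 in the knock-in, fully apart, with a difference of -0.37 (limma adjusted p = 0.558 over all kept probes). Psme3 gave 12.29, 12.20 and 12.79 against 12.07, 12.44 and 12.56, and Psme4 gave 9.99, 10.02 and 9.06 against 9.76, 9.76 and 9.60. Psme3 and Psme4 differed by -0.07 ± 0.20 and 0.02 ± 0.26 (limma adjusted p = 0.986 and 0.999). The wild type sample of arrays 9 and 10 was the lowest of Psme4 and the highest of Psme3. The 2 genes of the prefix that are no proteasome genes, Psmc3ip and Psme3ip1, differed by -0.24 ± 0.17 and -0.12 ± 0.12.

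Across samples the 41 genes spanned a median range of 0.47 log2 units, against 0.50 for all genes, and 3 of them, Psmd8, Psmd10 and Psmb8, spanned more than 1. Their mean level was 9.30, 9.21 and 9.32 in the controls and 9.30, 9.19 and 9.31 in the knock-in. The samples of arrays 5 to 8, 1 of each genotype, were thus the lowest of both genotypes. In 13 of the 41 genes, 31.7% against 12.4% of all genes, both samples of arrays 5 to 8 lay below the other 4. Arrays 1 to 4 were lowest in 3 genes, 7.32% against 6.51%, and arrays 9 to 12 in 1, 2.44% against 13.3%. The 13 included 8 of the cap, namely the ATPases Psmc1 and Psmc5, the scaffold Psmd2 and the lid genes Psmd6, Psmd7, Psmd11, Psmd12 and Psmd14. Each gene was read from 1 probe here. A further kept probe of Psmb7, Psmd6, Psmd7 and Psmd12 did not show this order. Those of Psmc5, Psmd11 and Psmd14 and others of Psmb7 and Psmd7 did. Signs agreed in all 3 blocks of arrays for 11 genes. They were higher in the knock-in sample for 3, Psmd5, Psmd10 and Psmd14, and lower for 8, against 16.3% and 23.5% of all genes.

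**Figure D4:**
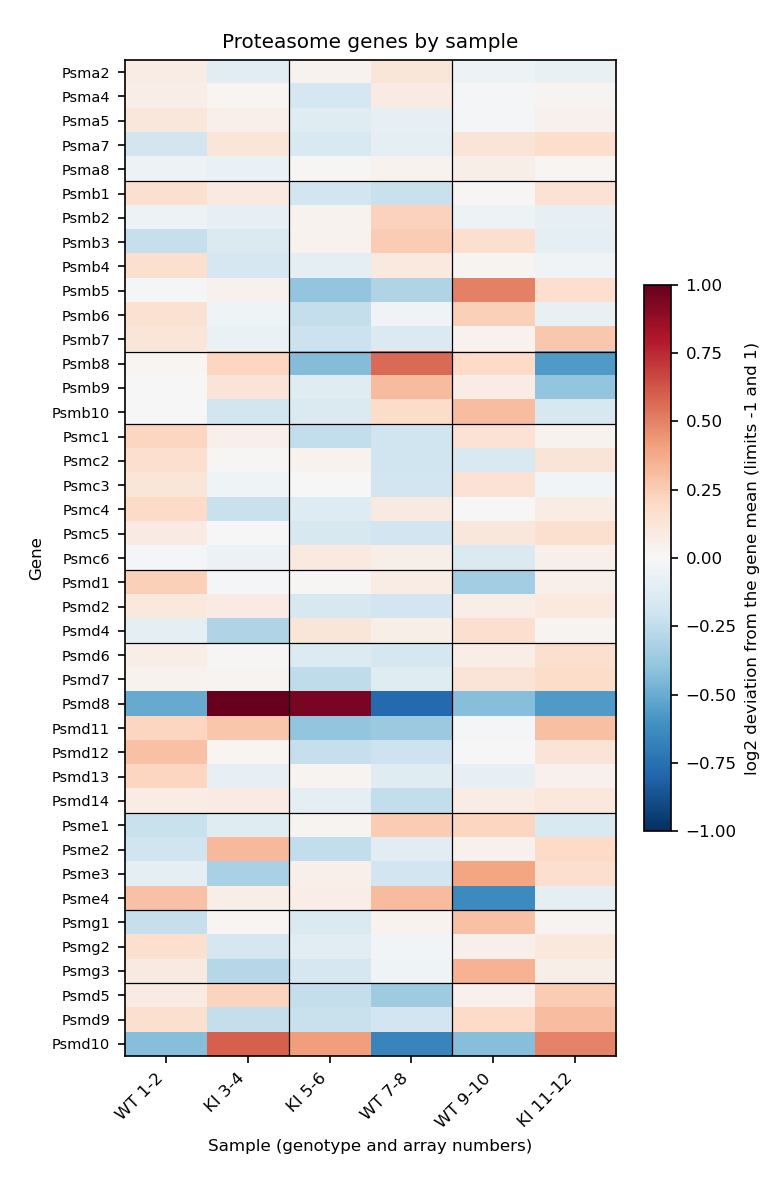
Deviation of each measured proteasome gene (vertical axis, grouped by role) from its mean over the 6 samples (horizontal axis, WT wild type and KI knock-in with array numbers), in log2 units with colours limited to -1 and 1. Psmd10 is high in all 3 knock-in samples, Psmd8 in 2 of them, and the columns of arrays 5 to 8 are pale blue for many cap and lid genes.

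Related genes outside the prefix were counted from a list of 35, of which 24 had a probe and 21 were measured. Of the 21, 0 passed and 13 had a higher knock-in mean. The other 38.1% were lower, against 58.4% of all genes, and the median difference of the 21 was 0.07. Usp14, a ubiquitin protease bound to the cap, had the smallest p, with levels of 7.87, 7.20 and 7.54 in the controls and 8.25, 7.94 and 8.48 in the knock-in. The lowest knock-in sample was above the highest wild type sample, and the difference was 0.68 ± 0.21 (limma adjusted p = 0.354), while a dimmer probe differed by 0.19. Nfe2l1, the transcription factor that raises proteasome genes when the proteasome is inhibited, differed by 0.32 ± 0.14, with levels of 9.36, 9.25 and 9.20 in the controls and 9.33, 9.78 and 9.67 in the knock-in (limma adjusted p = 0.592). The groups overlapped through the knock-in sample of arrays 3 and 4. The ubiquitin receptor Adrm1 was not analysed here.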

How the data were processed

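RNA of the sorted cells was hybridised to Illumina bead arrays; the submitters' processing notes list GenomeStudio, with no version. The authors deposited intensity values of 45281 probes, with background already subtracted as read from values below 0, and a second table of processed intensities that served as an alternative. Near-duplicate arrays were recognised by their correlation after centring each gene (0.852 to 0.941 for adjacent numbers, at most 0.19 otherwise within a genotype). Intensities were corrected by normexp (offset 50), quantile-normalized and put on the log2 scale, which understates folds of dim genes. Probes above a background limit (the 90th percentile of mirrored negative values, 6.6 to 7.7 units) on at least 6 arrays were kept, and a gene was read from its kept probe with the highest mean. The platform annotation gave 34885 probes 1 symbol, 18 several and 10378 none. All 9388 genes were tested with limma 3.58.1 (lmFit and eBayes, R 4.3.3); p-values were adjusted after Benjamini-Hochberg over these genes, with a threshold of 0.05, and the procedure was tested on simulated data. The number of arrays limits the precision. Blocks are arrays 1 to 4, 5 to 8 and 9 to 12; no label names a batch.

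Members and lists were chosen with earlier results of these data known. Levels are printed for chaperones, cutting subunits, activators and Psmd14, and for the 2 genes with the smallest p in each role; related genes named are the 3 with the smallest p, Nfe2l1, Pomp and Adrm1. Interferon and neighbouring genes named, and second probes, were chosen after their values were seen. The cut of 3 CCAAT matches was not planned beforehand. Figures were drawn with matplotlib 3.10.9. Alternatives changed the background correction, the scaling (cyclic loess or the 75th percentile), the input table, the filter, the probe choice, the variance model and the handling of duplicates and blocks, or left out an array or a sample.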

Additional observations from a re-analysis of the deposited data

How the results depend on the processing

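The difference of Psmd10 was above 0 in all 13 alternatives and 18 leave-outs. Proteasome genes called higher numbered 1, Psmd10, in 6 alternatives, with differences and limma adjusted p of 1.04 and 0.0452 under cyclic loess, 1.22 and 0.0438 under 75th percentile scaling, 1.06 and 0.0165 with array weights, and 1.00 with 2.98e-06 for 12 arrays as samples, 0.000294 for adjacent arrays as a random block and 0.0267 with blocks as a term. In the other 7 its limma adjusted p was at most 0.207. Leaving out an array or sample gave 0 to 1 genes called higher and a Psmd10 difference of 0.93 to 1.05, with limma adjusted p of 0.0418 to 0.321. With 12 arrays as samples 2 genes were called lower, Psmb4 and Psmb10, but this counts duplicates as samples and called 536 genes higher and 324 lower, against 8 and 0. The random block was likewise fitted to the 12 single arrays, so its limma adjusted p may be too small. Over all genes the random block called 237 higher and 46 lower, the block term 63 and 25, and array weights 34 and 10. The eBayes fit with trend and robust settings called 16 and 0, and leaving out a sample 0 to 4 higher.

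Under 75th percentile scaling 6 genes were apart and higher and 0 apart and lower. The share of all genes apart was counted only for the main processing, so such counts under alternatives are not read as proteasome results. The median under this scaling was 0.16 for the 41 genes, against 0.03 for all genes. It was 0.15 for the core, 0.19 for the cap, -0.11 for the immunoproteasome and 0.20 for the activators. Under that scaling these genes turned to a positive difference: Psmb5 0.020, Psmb6 0.029, Psmb7 0.26, Psmb4 0.086, Psma2 0.17, Psma4 0.16, Psmc4 0.080, Psmd4 0.16, Psme1 0.10, Psme3 0.14, Psmg1 0.028 and Psmg2 0.056. Cyclic loess left 1 gene apart and lower and turned Psmb7 to 0.056. Array weights gave an activator median of -0.10 and an immunoproteasome median of -0.16, and turned the difference of Psmb5 to 0.00992, Psmg1 to 0.048, Psme4 to -0.077 and Psmd1 to -0.080. The cause was not tested.

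With an array or sample left out, 1 to 5 genes were apart and higher and 2 to 8 apart and lower. A group with fewer samples comes apart from the other more easily, and the share of all genes was not counted here. Medians were -0.061 to 0.042 for the activators, -0.073 to 0.070 for the cap and -0.15 to 0.013 for the assembly factors. They were -0.10 to -0.029 for the core and -0.41 to -0.29 for the immunoproteasome. Signs turned within the ranges of Psmb5 (-0.31 to 0.093), Psmb7 (-0.14 to 0.099), Psme3 (-0.18 to 0.11), Psme4 (-0.30 to 0.18), Psmd4 (-0.18 to 0.030), Psmd14 (-0.043 to 0.13), Psmd11 (-0.034 to 0.35), Psmg1 (-0.20 to 0.062) and Psmd1 (-0.14 to 0.15). Replicate numbers in the labels pair no samples across genotypes; the pairing by blocks of adjacent arrays, above, was read from array numbers.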

Other observations

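Psmd8 and Psmd10 were set beside their neighbours in the RefSeq gene order. The 10 nearest measured neighbours of Psmd8 on chromosome 7 differed by -0.30 to 0.26, and 0 of them passed. Ccne1, which encodes cyclin E1, lies on the same chromosome. The 52 measured genes between it and Psmd8 differed by -0.35 to 0.85, and 0 were called by limma. At an unadjusted p under 0.05 limma gave 3 of them, where it gave 5.56% of all genes as higher and 3.09% as lower. The 10 nearest measured neighbours of Psmd10 on chromosome X differed by -0.19 to 0.50. Prps1, an enzyme of nucleotide synthesis, differed by 0.38 ± 0.10 with groups apart. Its limma adjusted p of 0.270 was the smallest of the 10, so no neighbour passed. Nxt2, an RNA export factor, differed by 0.40 ± 0.19 and Gm5643 by 0.50 ± 0.35, with groups overlapping. The remaining neighbours differed by -0.19 to 0.16, and Zcchc18, at -0.19, was apart and lower in the knock-in.

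The split of Psmd8, high in the knock-in samples of arrays 3 to 6 alone, was looked for in all genes after its values were seen. Psmd8 ranked 2 of 9388 by the gap between its lowest level on arrays 3 to 6 and its highest level elsewhere, 1.38 log2 units. A gap above 1 was found for 3 genes, with 1.49 for Wfdc17 and 1.06 for Upp1, uridine phosphorylase.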
